A study of Canis lupus familiaris with 8 samples.

Results

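The genes described here encode lipid-sensing nuclear receptors, the vitamin D receptor, their shared partners and a pair of coactivators, in circulating mononuclear cells of dogs. They are PPARA, PPARD and PPARG, the liver X receptors NR1H2 and NR1H3, the retinoid X receptors RXRA and RXRB, VDR, and the PGC-1 coactivators PPARGC1A and PPARGC1B. These 10 genes were taken by symbol from the 35048 rows of each dog's count table. None of them had a repeated symbol, and all 10 passed the low-count filter, which kept 20632 rows. The study set obese dogs against normal dogs to find genes that differ in peripheral blood mononuclear cells (PBMCs), the lymphocytes and monocytes of blood. The obese group had 5 dogs of several breeds: a Dachshund as dog 1, a Chihuahua as dog 2, Labrador retrievers as dogs 3 and 4 and a Welsh Corgi as dog 5. The normal group was 3 Beagles. No treatment is named, and the sources used here do not state age, sex or body condition scores. Breed and body condition cannot be told apart in any difference below, since no breed occurs in both groups.

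Nuclear receptors are transcription factors switched by small ligands. PPARs bind fatty acids and their derivatives, liver X receptors bind oxysterols and VDR binds the active form of vitamin D. Each of them acts as a heterodimer with a retinoid X receptor, so RXR is the partner common to the whole set. In monocytes and macrophages PPARG and the liver X receptors are known for control of lipid uptake and cholesterol efflux. VDR is known there for antimicrobial peptides in human cells. The PGC-1 proteins do not bind DNA themselves and are docked by nuclear receptors, best known at genes of mitochondria and fatty acid oxidation.

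Levels are given as CPM, 3′ tag counts brought to a common library size after TMM adjustment. One tag is read near the poly(A) end of a transcript, so that transcript length has little influence on its count. Setting levels of different genes beside each other also assumes that their 3′ ends are annotated. The annotation used for the counts is not given, so an order of levels between genes is approximate. Library totals were 10264202 to 14910982 counts among obese dogs, and 10408203 to 14811053 among normal dogs. Every T cell and monocyte marker checked was detected in all 8 libraries, and markers of platelets, red cells and neutrophils were also present. Obese dog 3 stood apart in its red cell markers, whose 10 genes summed to 1219 CPM there, 33.4 to 92.5 CPM among the remaining obese animals and 30.4 to 40.9 CPM among normal dogs. In bulk RNA, fewer cells of a type and less RNA per cell cannot be told apart. P-values rest on the spread between dogs, which the labels name as separate animals.

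None of the 10 genes passed an adjusted p of 0.05 in edgeR's quasi-likelihood test, where 0.233% of all genes tested did, 0.0485% as higher and 0.184% as lower in obese dogs. At an unadjusted p under 0.05 there was 1 of the 10, PPARG, against 15.7% of all genes tested. With DESeq2 the count past the adjusted threshold was 1 of 10 (PPARG, lower), where 5.43% of the genes with an adjusted p passed. With limma-voom and quality weights it was 2 of 10 (PPARG lower, RXRB higher), near the 19% of all genes that passed there. PPARG was also the 1 member whose groups did not overlap, where 10.9% of all genes tested had groups without overlap, 5.75% with the obese dogs higher and 5.16% with them lower. The interquartile range of all log2 fold changes was −0.40 to 0.55, with a median of 0.09. Of the 10 genes, PPARG (−1.18) and PPARGC1A (−0.93) lay below that range, RXRB (0.70) and PPARA (0.56) above it, and the others inside it.

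**Figure D1:**
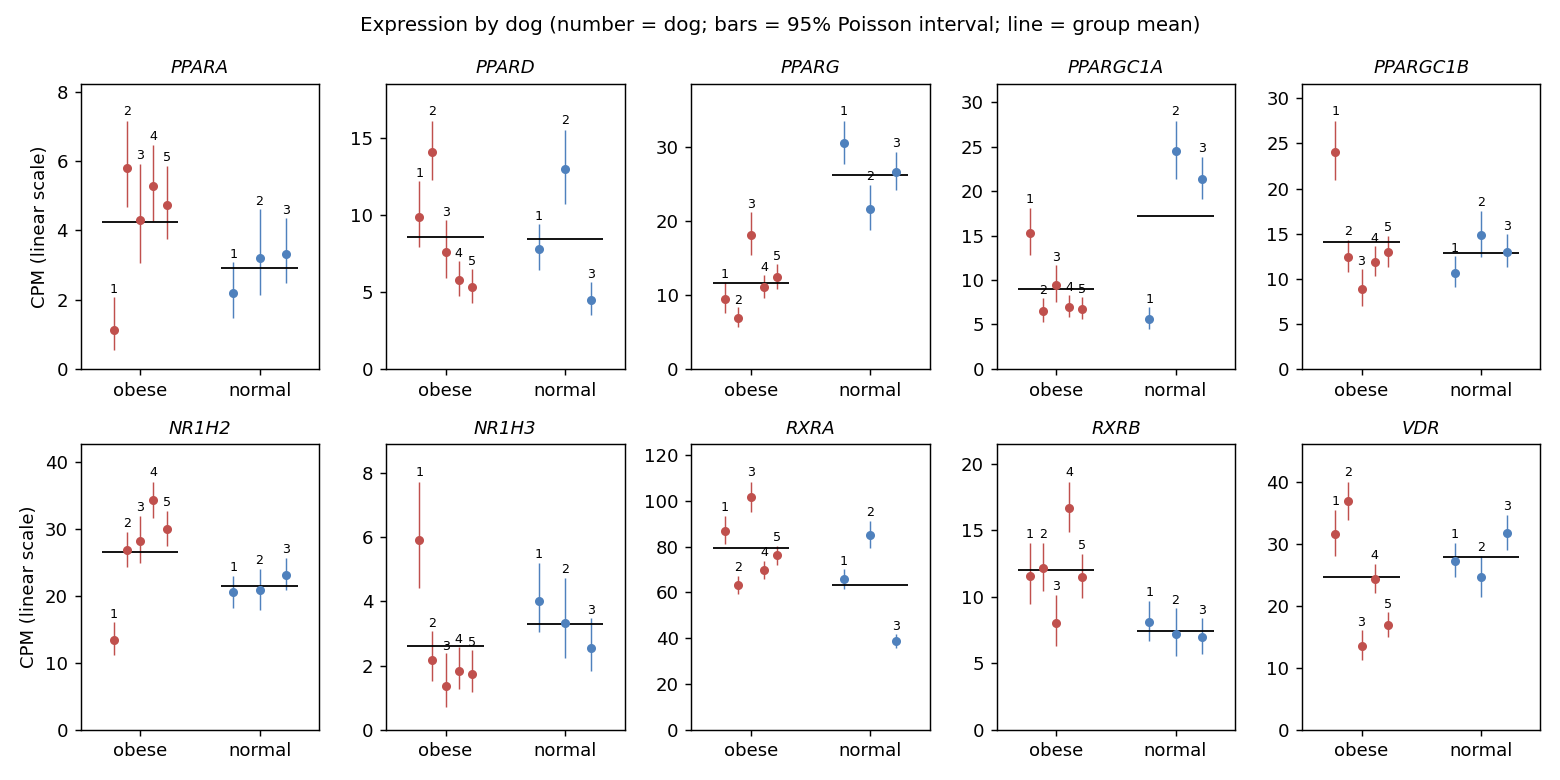
CPM (linear scale from 0) of each of the 10 genes in each library, obese dogs in red and normal dogs in blue, with dog numbers, exact 95% Poisson intervals (counting error only) and group means as lines. PPARG is the panel in which all obese dogs (6.88 to 18.1 CPM) lie below all normal dogs (21.7 to 30.6 CPM).

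PPARG, the receptor that drives fat cell formation and lipid handling in macrophages, had 9.53, 6.88, 18.1, 11.04 and 12.4 CPM in obese dogs 1 to 5. In normal dogs 1 to 3 it had 30.6, 21.7 and 26.7 CPM. The groups did not overlap, and the gap lay between obese dog 3 and normal dog 2. The exact 95% Poisson intervals of these dogs (counting error only) did overlap, at 15.4 to 21.2 CPM and 18.8 to 24.95 CPM. The means were 11.6 ± 4.20 CPM among obese dogs (SD, n = 5) and 26.3 ± 4.46 CPM among normal dogs (SD, n = 3). The log2 fold change was −1.18 with a standard error of 0.33 and a 95% interval of −1.91 to −0.46, and it did not pass over all genes (adjusted p = 0.153, edgeR). The exact two-sided permutation test gave p = 0.0179, which is the smallest value that the 56 splits into 5 and 3 dogs allow. Without obese dog 3 the log2 fold change was −1.43 and passed (adjusted p = 0.0164, edgeR), in a fit where 8.28% of all genes passed. Leaving out any other dog gave −1.33 to −1.04 and no call.

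The same libraries differed in their make-up of cells, and the part of this in PPARG was not tested. Monocyte markers had a mean of 5.42 to 6.37 log2(CPM + 0.5) over 12 genes among obese dogs, and 6.38 to 6.62 among normal dogs, with none of the 12 at 0 in any library. Single monocyte genes did not share that direction: 7 of the 12 had a log2 fold change above 0 and the median was 0.13, and VCAN was the 1 whose groups did not overlap. Their summed level was 1110 to 6196 CPM among obese dogs, and 3517 to 7758 CPM among normal dogs. Obese dogs 1 and 3, at 6.34 and 6.37, came close to normal dog 2 at 6.38 in the mean of monocyte markers, but through different genes. CD14 had 32.55 and 16.6 CPM in these obese dogs and 7.19 CPM in normal dog 2. S100A8 had 330 and 2131 CPM in them and 3154 CPM in normal dog 2. Plasma cell markers summed to 155 to 271 CPM over 10 genes among obese dogs, and 326 to 1205 CPM among normal dogs. SDC1, MZB1 and DERL3 were at 0 in at least 1 obese library, and none of the 10 was at 0 in a normal one. Of the 9 tested, 8 had a log2 fold change below 0 and XBP1 (0.21) was the 1 above. SDC1, with 37 counts in all and not tested, averaged 0.398 CPM among obese dogs and 0.128 CPM among normal dogs. JCHAIN alone had 602, 54.8 and 408 CPM in normal dogs 1 to 3, and 5.56 to 35.3 CPM among obese dogs. T cell markers ran against the plasma cell sum. Over 10 genes they had 487 to 1753 CPM among obese dogs, and 339 to 492 CPM among normal dogs. Neutrophil markers overlapped between the groups, with 222 to 3452 CPM among obese dogs, and 1020 to 3048 CPM among normal dogs, and ELANE and CXCR2 were at 0 in libraries of both. Platelet markers were higher in every obese library, with 73.0 to 1490 CPM over 8 genes among obese dogs against 11.4 to 34.5 CPM among normal dogs, and a median log2 fold change of 4.11 over the 7 tested.

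**Figure D2:**
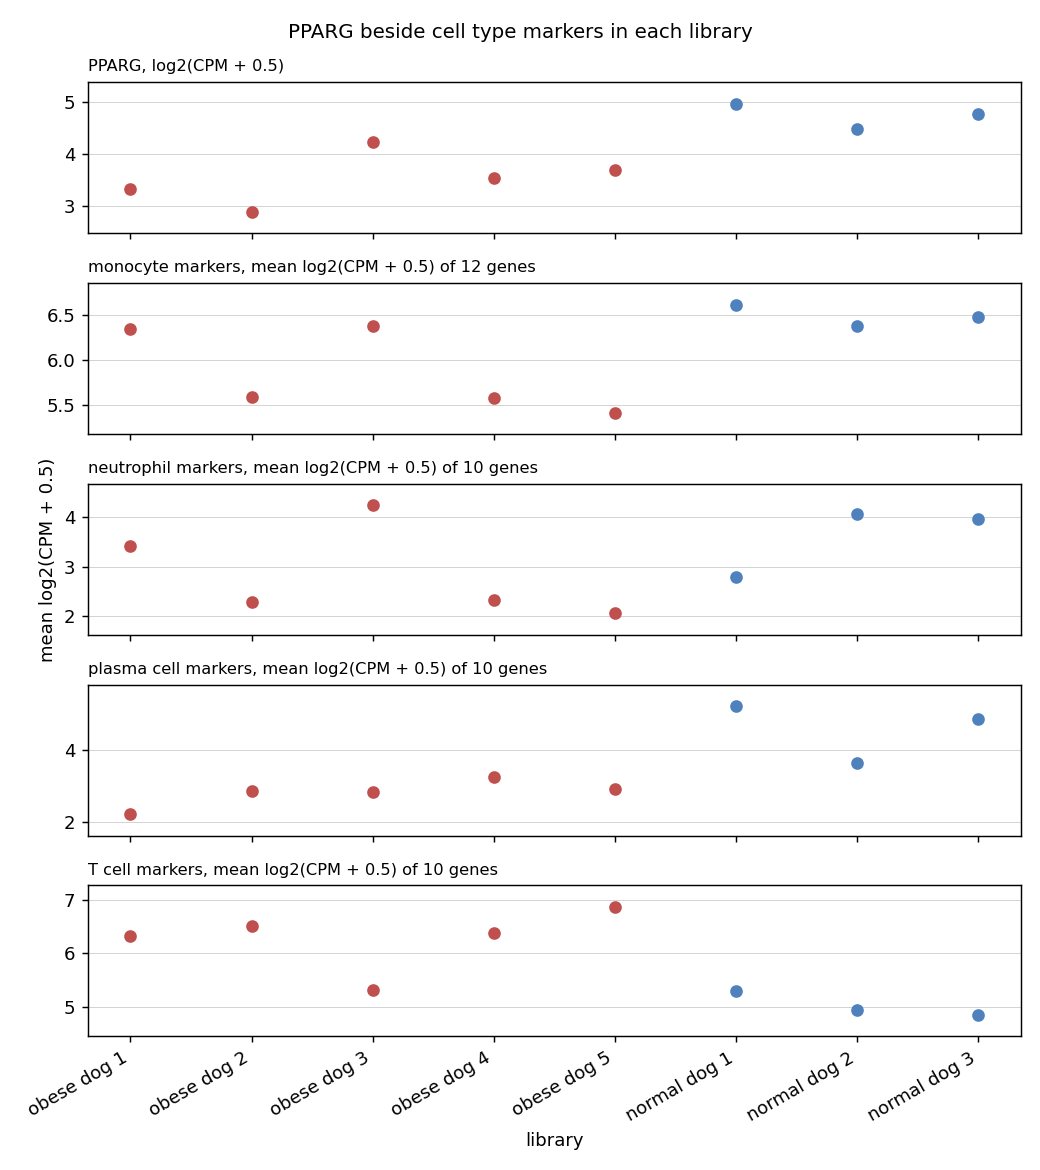
PPARG (top panel) and the mean log2(CPM + 0.5) of monocyte, neutrophil, plasma cell and T cell markers in each library, obese dogs in red to the left and normal dogs in blue to the right. PPARG and plasma cell markers are lower in every obese library than in any normal one, monocyte markers of obese dogs 1 and 3 lie just under normal dog 2, and neutrophil markers overlap.

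PPARD, the most widely expressed PPAR across tissues, had 9.87, 14.1, 7.60, 5.80 and 5.31 CPM among obese dogs and 7.80, 12.9 and 4.46 CPM among normal dogs. The groups covered much the same range, with 4 of the 5 obese dogs inside the normal range. Its log2 fold change was 0.03 with a 95% interval of −0.98 to 1.03, and its sign turned to −0.12 with upper-quartile scaling and in 4 of the 8 fits that left out 1 dog. PPARA, the main PPAR of fatty acid oxidation in liver, was rare, with 10, 88, 38, 95 and 81 counts among obese dogs, and 31, 29 and 52 counts among normal dogs. That is 1.13, 5.82, 4.31, 5.30 and 4.72 CPM among obese dogs against 2.18, 3.21 and 3.32 CPM among normal dogs. Obese dog 1 lay below all normal dogs and the other 4 lay above them. The log2 fold change of PPARA was 0.56 (95% interval −0.63 to 1.74, adjusted p = 0.647, edgeR), and it was 0.79 without obese dog 1 (adjusted p = 0.381).

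The balance among the 3 PPARs can be read within a library, where scaling plays no part. PPARG made up 46.4, 25.7, 60.4, 49.9 and 55.3% of all PPAR counts in obese dogs 1 to 5 and 75.4, 57.3 and 77.4% in normal dogs 1 to 3. The groups overlapped through obese dog 3 (exact 95% binomial interval 54.2 to 66.3%, counting error only) and normal dog 2 (51.9 to 62.6%). In obese dog 2 PPARD was the most counted PPAR, with 213 counts beside 104 of PPARG and 88 of PPARA. Obese dog 1 also had slightly more PPARD than PPARG, with 87 and 84 counts, while in the other 6 dogs PPARG had the most counts of the 3.

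RXRA, the main retinoid X receptor of myeloid cells and liver, was the most abundant gene of the set, with a mean of 73.4 CPM over the 8 dogs, above 86.5% of all genes tested. It had 87.0, 63.1, 102, 69.8 and 76.2 CPM among obese dogs and 65.7, 85.1 and 38.7 CPM among normal dogs. Normal dog 3 was the lowest of all, and 3 of the 5 obese dogs lay inside the normal range. RXRA had a log2 fold change of 0.33 (95% interval −0.31 to 0.98, adjusted p = 0.612, edgeR) and 0.05 without normal dog 3. RXRB, the more evenly expressed partner, had 11.6, 12.2, 8.05, 16.7 and 11.5 CPM among obese dogs and 8.09, 7.19 and 6.95 CPM among normal dogs. The groups overlapped narrowly, with obese dog 3 just under normal dog 1 and the other 4 obese dogs above all normal dogs. Means were 11.99 ± 3.08 CPM among obese dogs (n = 5) and 7.41 ± 0.597 CPM among normal dogs (n = 3), a log2 fold change of 0.70 with a standard error of 0.32. It did not pass with edgeR (adjusted p = 0.331) or DESeq2 (adjusted p = 0.232), and it passed with limma-voom and quality weights (log2 fold change 0.88, adjusted p = 0.0317). The exact permutation test of RXRB gave p = 0.0714. RXRB held 7.35 to 19.3% of the counts of RXRA and RXRB together among obese dogs, and 7.79 to 15.2% among normal dogs.

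Set against the shared partner, PPARG had 10.95, 10.89, 17.9, 15.8 and 16.3 counts per 100 counts of RXRA among obese dogs and 46.6, 25.5 and 69.0 among normal dogs. The groups did not overlap in this ratio, which is free of library scaling. For VDR the ratio was 36.2, 58.3, 13.3, 34.8 and 22.2 among obese dogs, and 41.5, 28.9 and 82.0 among normal dogs, and the groups overlapped.

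**Figure D3:**
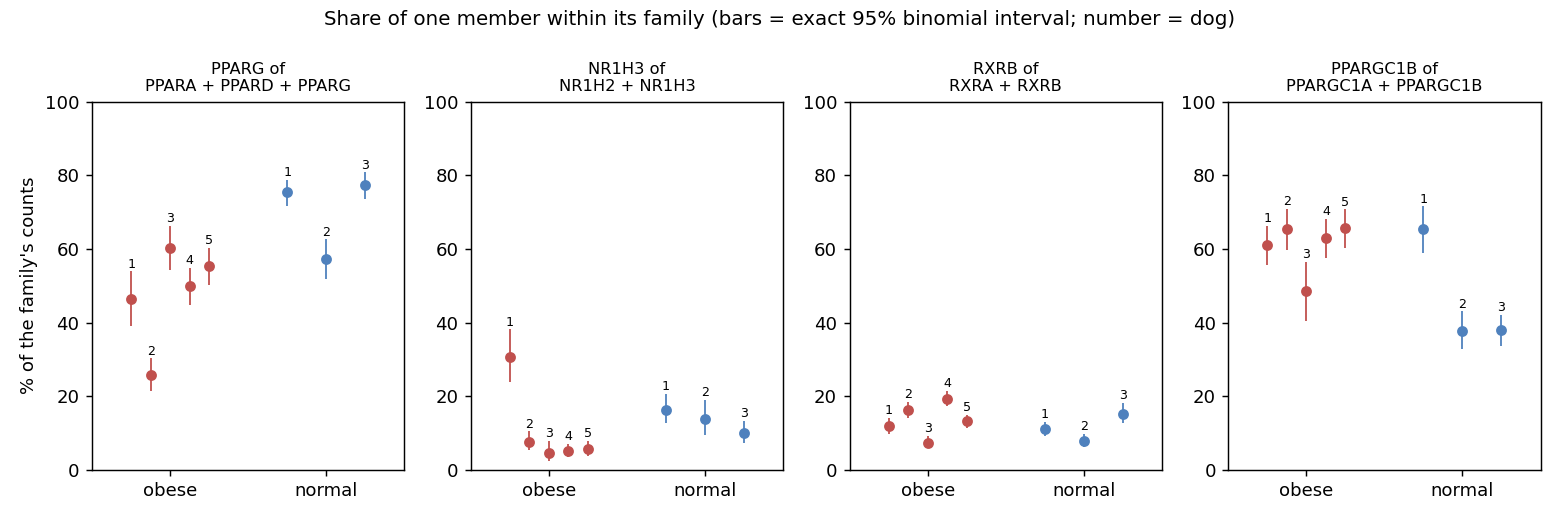
Share of the counts of a family held by 1 of its genes in each library (linear axis, 0 to 100%), obese dogs in red and normal dogs in blue, with dog numbers and exact 95% binomial intervals. NR1H3 of obese dog 1 (30.6%) stands above all other dogs, and PPARGC1B of normal dog 1 (65.5%) lies with the obese dogs and above normal dogs 2 and 3 (37.7 and 37.8%).

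NR1H2, the liver X receptor found in most cells, had 13.4, 26.8, 28.2, 34.2 and 29.9 CPM among obese dogs and 20.5, 20.8 and 23.2 CPM among normal dogs. Obese dog 1 was lowest of all 8 dogs and the other 4 obese dogs were the highest. Its log2 fold change was 0.30 (95% interval −0.39 to 1.00, adjusted p = 0.673, edgeR), and 0.47 without obese dog 1. NR1H3, the liver X receptor of macrophages and liver, was the scarcest gene, with 52, 33, 12, 33 and 30 counts among obese dogs, and 57, 30 and 40 counts among normal dogs. In CPM these were 5.90, 2.18, 1.36, 1.84 and 1.75 among obese dogs and 4.01, 3.32 and 2.55 among normal dogs. Obese dog 1 was above all normal dogs and the other 4 were below them, the mirror image of NR1H2. The log2 fold change of NR1H3 was −0.35 (95% interval −1.58 to 0.89, adjusted p = 0.802, edgeR), and −0.88 without obese dog 1 (adjusted p = 0.387).

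NR1H3 held 30.6% of the liver X receptor counts in obese dog 1, 4.60 to 7.52% among the remaining obese animals and 9.93 to 16.3% among normal dogs. Obese dog 1 was also the highest of its group in both coactivators and the lowest in PPARA. Its platelet markers summed to 1490 CPM over 8 genes, the highest of all libraries, where the other obese dogs had 73.0 to 633 CPM and the normal dogs 11.4 to 34.5 CPM. Of the 8 genes GP1BB had 0 counts in all libraries, and GP9 had none in normal dog 2. The part of platelet RNA in these values was not tested.

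VDR had 31.5, 36.8, 13.5, 24.3 and 16.9 CPM among obese dogs and 27.3, 24.6 and 31.7 CPM among normal dogs. The obese dogs spread to both sides of the normal dogs, with dog 2 above and dogs 3, 4 and 5 below them. The log2 fold change was −0.18 (standard error 0.35, 95% interval −0.94 to 0.59, adjusted p = 0.841, edgeR). It was −0.37 without obese dog 2 and −0.06 without obese dog 3. Obese dog 3 had the lowest VDR of the 5 obese dogs. Its monocyte marker mean was the highest of the 5, but single markers went both ways. Among obese dogs it was highest in S100A8 (2131 CPM) and VCAN (851 CPM) and lowest in CTSS (111 CPM) and CD163 (0.454 CPM). The part of cell make-up in VDR was not tested.

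PPARGC1A, the coactivator best known for mitochondrial biogenesis in muscle and brown fat, had 15.3, 6.54, 9.41, 6.97 and 6.77 CPM among obese dogs. The normal dogs had 5.62, 24.5 and 21.4 CPM. Normal dog 1 was the lowest of all 8 and normal dogs 2 and 3 the highest, so that every obese dog lay inside the normal range. The log2 fold change was −0.93 (standard error 0.48, 95% interval −2.00 to 0.13, adjusted p = 0.38, edgeR). It was −1.34 without normal dog 1 (adjusted p = 0.219) and −0.62 without normal dog 2. PPARGC1B, the second PGC-1 protein, had 24.0, 12.4, 8.85, 11.9 and 13.0 CPM among obese dogs and 10.7, 14.8 and 13.0 CPM among normal dogs. Only obese dog 1 lay above and only obese dog 3 below the normal range. Its log2 fold change of 0.13 turned to −0.16 without obese dog 1 and to −0.014 with upper-quartile scaling (95% interval of the first −0.66 to 0.92).

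**Figure D4:**
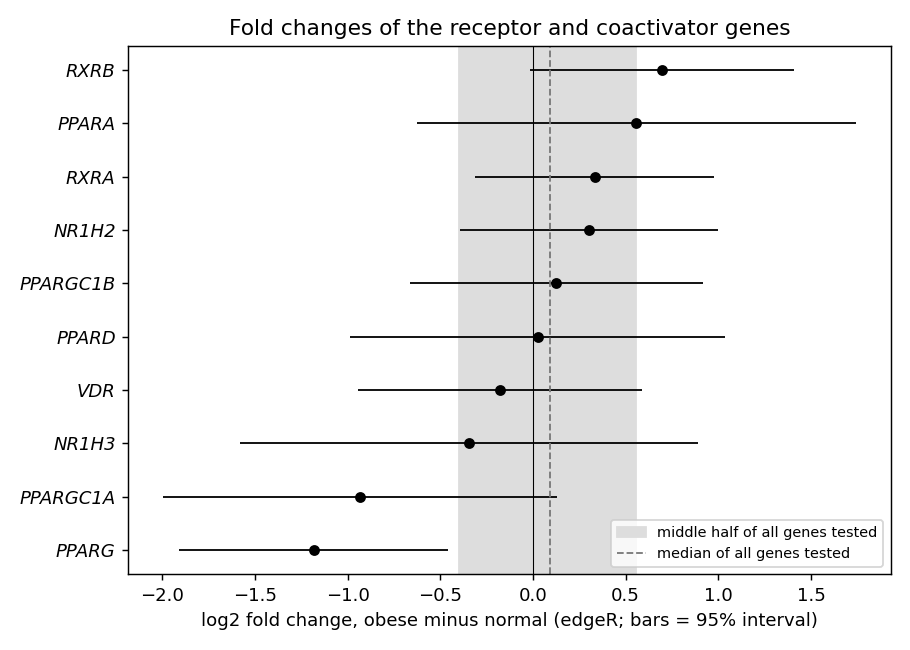
Log2 fold change, obese minus normal, of each gene with its 95% interval from edgeR, sorted by size, over the interquartile range of all genes tested (grey band, −0.40 to 0.55) and their median (dashed line, 0.09). The interval of PPARG (−1.91 to −0.46) is the 1 of the 10 that does not include 0.

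In order of mean log2 level over all dogs the genes ran RXRA, VDR, NR1H2, PPARG, PPARGC1B, PPARGC1A, RXRB, PPARD, PPARA and NR1H3. RXRA was above VDR in all 8 dogs, by 1.504 ± 0.795 log2 units (SD, n = 8), and PPARD was above PPARA in all 8 by 1.10 ± 0.912. The other 7 pairs of neighbours differed by less than the spread between dogs. NR1H2 and PPARG changed places between the groups, with NR1H2 above PPARG in 5 of 5 obese dogs and in 0 of 3 normal dogs. PPARG was above PPARGC1B in 1 of 5 obese and 3 of 3 normal dogs. Within the obese group the coefficient of variation in CPM ran from 19.0% for RXRA to 71.5% for NR1H3.

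The genes with levels most like those of the 3 members with the smallest unadjusted p were searched among 10000 named genes with a mean of at least 5 CPM, by Pearson's r over the 8 libraries. For PPARG they were SLC16A4, of the monocarboxylate transporter family (r = 0.985, Spearman's rho = 1), NCAPG2, a condensin II subunit (r = 0.951, rho = 0.952), and COL11A2, a fibrillar collagen chain (r = 0.95, rho = 0.833). For RXRB they were BBC3, the apoptosis inducer PUMA (r = 0.98, rho = 0.881), CNPPD1 (r = 0.974, rho = 0.857) and DDB2, a sensor of ultraviolet DNA damage (r = 0.969, rho = 0.976). For PPARGC1A they were CDH18, a cadherin (r = 0.989, rho = 1), EPHA6, an ephrin receptor (r = 0.969, rho = 0.976), and FMN2, a formin (r = 0.968, rho = 0.905). These values describe the best of many genes over 8 libraries that share depth and cell make-up, and for PPARG they include the gap between the groups.

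PPAR target genes come from fatty acid transport, storage and oxidation. Of 15 tested among 20 listed, 0 rose and 1 fell, where 0.233% of all genes were called. At an unadjusted p under 0.05 there were 4, where 15.7% of all genes were. Above 0 were 5 of the 15 fold changes, against 55.3% of all genes, and the median log2 fold change was −0.56 where that of all genes was 0.09. HADHB, the thiolase subunit of the mitochondrial trifunctional protein, had 23.9, 34.0, 33.6, 22.03 and 29.2 CPM among obese dogs and 82.5, 69.7 and 71.3 CPM among normal dogs. The groups did not overlap, and HADHB fell by 1.38 log2 units in obese dogs (standard error 0.231; edgeR adjusted p = 0.049). That call was at the edge of the threshold: it was kept without obese dog 3 (adjusted p = 0.00557) and lost in each of the 7 other fits that left out 1 dog (adjusted p = 0.102 to 0.262).

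The next PPAR targets did not pass over all genes. PLIN2, the coat protein of lipid droplets, had 630 CPM in obese dog 3, 52.4 to 139 CPM among the remaining obese animals and 669, 976 and 480 CPM among normal dogs. Obese dog 3 lay inside the normal range, and without it the log2 fold change of PLIN2 was −3.09 (adjusted p = 0.00196, edgeR) in place of −1.87 (adjusted p = 0.295). FABP5, a fatty acid carrier, likewise had 15.4 CPM in obese dog 3, 1.75 to 6.15 CPM among the remaining obese animals and 15.4 to 20.3 CPM among normal dogs. Its log2 fold change was −2.16 without that dog (adjusted p = 0.0161) and −1.50 with it (adjusted p = 0.265). In the fit without obese dog 3, 8.28% of all genes tested passed. SLC25A20, the carnitine carrier of the inner mitochondrial membrane, had 11.3 ± 5.68 CPM among obese and 22.3 ± 5.78 CPM among normal animals and did not pass (adjusted p = 0.292, edgeR). Obese dog 3 was the highest obese dog in PLIN2, FABP5 and PPARG and in the means of neutrophil and monocyte markers. It was not the highest in every single marker. How far cell make-up enters these values was not tested.

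**Figure D5:**
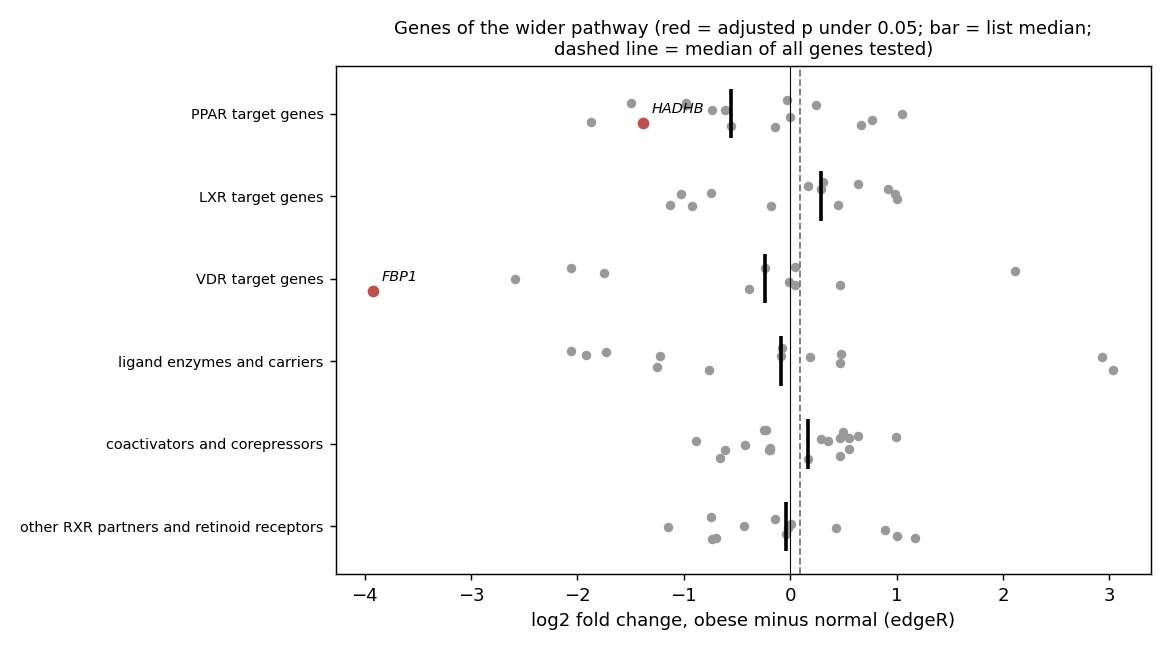
Log2 fold changes, obese minus normal, of the tested genes in 6 lists of related genes, each point 1 gene, with the list median as a bar and the median of all genes as a dashed line. HADHB and FBP1 are the 2 genes past an adjusted p of 0.05 (red), and the lists spread to both sides of 0.

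Liver X receptor targets gave 0 calls among 13 tested of 15 listed (edgeR; 2 at an unadjusted p under 0.05, 0 by DESeq2, 3 by limma-voom), with a median of 0.29. Over all genes these shares were 15.7% at an unadjusted p, 5.43% by DESeq2 and 19% by limma-voom. The list held fold changes of both signs. MERTK, a receptor for apoptotic cells, had 2.50, 1.39, 3.86, 3.85 and 2.04 CPM among obese dogs and 5.06, 7.64 and 5.23 CPM among normal dogs, without overlap (log2 fold change −1.13, adjusted p = 0.27, edgeR). ABCG1, which exports cholesterol to HDL, had 114, 83.6, 25.6, 42.5 and 45.4 CPM among obese dogs and 38.2, 27.1 and 27.6 CPM among normal dogs (log2 fold change 1.007, adjusted p = 0.316). Only obese dog 3 lay below the normal dogs in ABCG1, and the other 4 were above all of them. CD5L, a secreted macrophage protein, had a log2 fold change of −0.92 and did not pass (adjusted p = 0.366, edgeR).

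Among VDR targets known from human cells, 1 of 11 tested genes of 14 listed (1 not analysed here) fell and 0 rose, where 0.233% of all genes were called (edgeR). The median was −0.23, where that of all genes was 0.09. DESeq2 called 1 of the 11 and limma-voom 4, against 5.43% and 19% of all genes. At an unadjusted p under 0.05 there were 2 of 11, near the 15.7% of all genes. Leaving out normal dog 3 gave a median of 0.05, and leaving out normal dog 2 gave −0.47. The gene that fell was FBP1, the fructose bisphosphatase of gluconeogenesis, which was put on the list with its fall in these dogs already known. It had 4.76, 4.89, 5.33, 5.85 and 2.45 CPM among obese dogs and 54.1, 106 and 51.0 CPM among normal dogs (log2 fold change −3.92, adjusted p = 0.00661, edgeR), and passed in all 8 fits that left out 1 dog. No other VDR target passed. CAMP, the cathelicidin peptide and also one of the neutrophil markers, had 127 CPM in obese dog 1, 6.36 to 25.1 CPM among the remaining obese animals and 3.52 to 14.0 CPM among normal dogs (adjusted p = 0.368, edgeR). G0S2, an inhibitor of lipid breakdown, had 9.04 to 40.8 CPM in 4 obese dogs, 326 CPM in obese dog 3 and 231 to 788 CPM among normal dogs (adjusted p = 0.308). Without obese dog 3 its log2 fold change was −4.54 (adjusted p = 0.00379, edgeR), in a fit where 8.28% of all genes tested passed. However, G0S2 overlaps LAMB3 in the RefSeq annotation of UU_Cfam_GSD_1.0, and how reads there were assigned is not known. HBEGF, a growth factor, had 2.63 ± 3.80 CPM among obese dogs, and 10.7 ± 6.14 CPM among normal dogs (adjusted p = 0.429). CYP24A1, which degrades vitamin D and is the classic VDR target, had 31 counts in all 8 libraries together and was not tested.

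Enzymes and carriers of the ligands gave 0 calls among 13 tested of 18 listed (edgeR; 4 at an unadjusted p under 0.05, 1 by DESeq2, 5 by limma-voom), against 15.7%, 5.43% and 19% of all genes. The median of −0.08 was −0.87 with limma-voom, −1.09 without obese dog 3 and 0.16 without obese dog 5. FABP3, a fatty acid carrier, had 9.30, 8.33, 1.25, 5.24 and 5.95 CPM among obese dogs and 22.9, 13.9 and 23.2 CPM among normal dogs. The groups did not overlap, and the log2 fold change was −1.73 (standard error 0.508, adjusted p = 0.169, edgeR). Unlike PLIN2 and FABP5, FABP3 was lowest in obese dog 3, and without that dog it passed at a log2 fold change of −1.52 (adjusted p = 0.0218, edgeR). In the fit without obese dog 3, 8.28% of all genes tested passed. ALOX15, which oxidises polyunsaturated fatty acids, had 161 CPM in obese dog 3, 6.88 to 11.9 CPM among the remaining obese animals and 4.29 to 5.98 CPM among normal dogs. Its log2 fold change was 2.93 (adjusted p = 0.303, edgeR) and 0.83 without obese dog 3. ALOX5, the leukotriene enzyme, had 6.74 to 62.5 CPM among obese dogs, and 19.5 to 176 CPM among normal dogs, and ALDH1A2, which makes retinoic acid, had 0.954 ± 0.356 CPM among obese and 2.26 ± 0.811 CPM among normal animals. Neither passed (adjusted p = 0.316 and 0.304, edgeR), and the log2 fold change of ALOX5 was −2.06. It was −3.23 without obese dog 3 (adjusted p = 0.0212, edgeR) and −0.84 without normal dog 2 (adjusted p = 0.837, edgeR).

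Of the 19 coactivators and corepressors, all of them tested, 0 passed (edgeR; 3 at an unadjusted p under 0.05, 0 by DESeq2, 4 by limma-voom), against 15.7%, 5.43% and 19% of all genes. The median of 0.17 was −0.23 with limma-voom and −0.09 without normal dog 2. NCOR1, a corepressor that silences unliganded receptors, had 359, 427, 589, 218 and 289 CPM among obese dogs and 608, 701 and 780 CPM among normal dogs, without overlap (log2 fold change −0.89, adjusted p = 0.234, edgeR). Without obese dog 3 NCOR1 passed, at −1.14 (adjusted p = 0.0296, edgeR), in a fit where 8.28% of all genes tested passed. EP300, a histone acetyltransferase, had 252 ± 70.4 CPM among obese and 385 ± 37.9 CPM among normal animals and passed only in that fit among the 8 (adjusted p = 0.036, against 0.29 with all dogs). EP300 overlaps an uncharacterised gene with 19179 counts beside its own 31267. GPS2, a subunit of nuclear corepressor complexes, had 26.5 ± 7.88 CPM among obese and 17.0 ± 3.78 CPM among normal animals (adjusted p = 0.346).

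The other partners of RXR and the retinoid receptors gave 0 calls among 13 tested of 16 listed (edgeR; 2 at an unadjusted p under 0.05, 0 by DESeq2, 3 by limma-voom), against 15.7%, 5.43% and 19% of all genes. The median of −0.04 was 0.115 without normal dog 3. THRA, a thyroid hormone receptor, had 8.51, 13.0, 10.9, 17.4 and 20.6 CPM among obese dogs and 10.97, 4.09 and 3.64 CPM among normal dogs (log2 fold change 1.17, adjusted p = 0.273, edgeR). Normal dog 1 lay among the obese dogs in THRA. NR4A2, an orphan receptor induced by stimulation, had 68.4 to 302 CPM among obese dogs, and 74.1 to 114 CPM among normal dogs (adjusted p = 0.287). RARB, a retinoic acid receptor, had 7.93 ± 2.56 CPM among obese and 13.3 ± 5.68 CPM among normal animals (adjusted p = 0.384, edgeR). The testicular receptor NR2C2 had 133 ± 25.6 CPM among obese and 98.8 ± 11.4 CPM among normal animals (adjusted p = 0.403, edgeR). RXRG, the third retinoid X receptor, had 54 counts in all.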

How the data were processed

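For each dog the authors deposited raw gene counts, whole numbers keyed by symbol and not normalized. Lexogen QuantSeq libraries, which read 3′ ends, were made from Trizol RNA of each dog, per the labels' protocols. Bowtie2 and bedtools are named, per the submitters' processing notes, without version or role. The sources used here give no genome build, annotation or strand setting. Of rows with a repeated symbol (89 symbols), the one with the highest mean kept the symbol. In R 4.3.3, edgeR 4.0.16 was run on all genes (filterByExpr by group, TMM, robust glmQLFit, glmQLFTest), with Benjamini-Hochberg adjustment over 20632 genes and a threshold of 0.05. Fold changes are obese minus normal, and the standard error is the absolute log2 fold change over the square root of F. The 95% intervals use edgeR's total degrees of freedom, residual plus prior. The exact two-sided permutation test used log2(CPM + 0.5). This fit was first tested on simulated counts with 1 common spread for all genes. It called 0 of 47 genes changed 2-fold, 14 of 46 changed 4-fold and 42 of 44 changed 8-fold. Of 19805 unchanged genes it called 1. A gene without a call can therefore still differ by 2-fold or 4-fold. Alternatives used DESeq2 1.42.0, limma 3.58.1, other scalings and filters, and fits without each dog.

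The members and lists were chosen with earlier results of these data known. Related genes were named where called or among the 4 smallest p of their list; some genes this rule takes are not reported here. CPM near 1 rests on few counts: intervals are exact Poisson or binomial at 95% and cover counting error only. All 10 members were found in the RefSeq gene table of UU_Cfam_GSD_1.0, where 8 overlap no other gene. PPARGC1A overlaps a gene with 0 counts and PPARGC1B a microRNA gene that was not analysed here.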

Additional observations from a re-analysis of the deposited data

Results flagged for a closer look

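Among the 10 genes and 9 marker lists, each checked in the 5 obese dogs for 1 dog far from the rest, 2 of 19 were picked out, where chance picks about 1 in 20. PPARA of obese dog 1 was low, at 0.71 log2(CPM + 0.5), and its gap to the nearest obese dog was 0.798 of the whole range, above the critical value of 0.71. NR1H2 of the same dog was low too, at 3.80 log2(CPM + 0.5), with a gap of 0.739 of the range. NR1H3 was high in that dog, with a gap of 0.704 that stayed under the critical value.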

How the results depend on the processing

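Over 18 alternatives for each of the 10 genes, 169 of 180 values kept their sign and their side of the threshold, 4 passed newly and 7 changed sign. PPARG passed with DESeq2 (−1.19, adjusted p = 0.0341) and limma-voom (−1.36, adjusted p = 0.00509), and RXRB with limma-voom (0.88); the adjusted p of PPARG ran from 0.00509 to 0.548. With upper-quartile scaling PPARD was −0.12 and PPARGC1B −0.014, and the median of all genes moved from 0.09 to −0.031. Without each dog in turn, PPARG ran from −1.43 to −1.04, PPARD from −0.30 to 0.44 and PPARGC1B from −0.16 to 0.22. The count of all genes called (48) was 1684 without obese dog 3, 2 without obese dog 1 or 2 or normal dog 3, 3 and 15 without obese dogs 4 and 5, 33 and 20 without normal dogs 1 and 2, 1031 with DESeq2 and 3924 with limma-voom, and the count of members called was 0 to 1, 1 and 2. In the same fits without a dog, calls were 0 to 3 among PPAR targets, 0 to 2 among liver X receptor targets, 1 to 2 among VDR targets, 0 to 4 among ligand enzymes and 0 to 3 among coregulators. Each highest count was that without obese dog 3, out of 15, 13, 11, 13 and 19 genes tested, where 8.28% of all genes passed. With limma-voom these lists had 5 of 15, 3 of 13, 4 of 11, 5 of 13 and 4 of 19 called and the other RXR partners 3 of 13, where 19% of all genes passed. With DESeq2 the ligand enzymes had 1 of 13, where 5.43% of the genes with an adjusted p passed. PPAR targets had 0 with no filter on low counts and 0 without robust estimation. Of the related genes the naming rule takes, 398 of 432 values kept sign and side, and none changed sign. FABP5, PLIN2, G0S2, FABP3, ALOX5, NCOR1 and EP300 passed without obese dog 3, in the fit where 8.28% of all genes tested passed. These genes passed in no other fit that left out 1 dog. With dog number as a replicate block, 0 genes of the whole table passed, as did 0 PPAR targets and 0 VDR targets (PPARG −1.30, adjusted p = 0.548; 1634 genes at an unadjusted p under 0.05), and it added no call. The numbers name dogs and do not pair them: deviations of same-numbered dogs correlated at −0.0241, −0.231 and 0.00813. The exact permutation tests kept their side of 0.05 with log2(CPM + 2). The causes of these differences were not tested. Depth limits NR1H3 and PPARA, with as few as 12 and 10 counts in a library.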
